A study of Mus musculus with 8 samples.

Results

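8 genes of cholesterol handling were described here in hematopoietic stem cells (HSCs) of mice with hemolytic anemia: Srebf2, Hmgcs1, Idi1, Fdps, Fdft1, Sqle, Abca1 and Apoe. They were chosen by symbol, with earlier results of these data known, the high level of Apoe among them. All 8 were found among the 15142 genes listed in all 3 expression tables. Of these genes, 11347 were tested for differences, and 6 of the 8 members were among them. None of the 8 is a lipoprotein receptor, so uptake was described through other genes of the pathway.

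HSCs were sorted from C57BL/6 WT mice, 8 to 12 weeks old and of both sexes per the study's methods. Phenylhydrazine (PHZ), which lyses red blood cells, was injected intraperitoneally at 60 mg/kg in 2 injections, and cells were taken at day 3 after the last one. The groups were bone marrow HSCs of mice without PHZ (control BM HSC, 3 libraries, labelled PBS in the sample records and described as untreated in the study), bone marrow HSCs after PHZ (PHZ BM HSC, 3 libraries) and spleen HSCs after PHZ (PHZ SP HSC, 2 libraries). Untreated spleen HSCs are not analysed here, so the effect of the tissue and that of PHZ cannot be told apart when spleen and control marrow HSCs are compared.

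The marrow columns of the tables are headed WBM, whereas the sample records name sorted HSCs. All 12 HSC markers were listed, with summed levels of 453 to 592 FPKM in control BM HSC, 501 to 608 in PHZ BM HSC and 558 to 582 in PHZ SP HSC. The libraries held 8216626 to 13201359 reads, of which the ribosomal RNA precursor Rn45s took 43.3% to 48.6%. Levels are given as FPKM (fragments per kilobase of gene, scaled for depth), which allows genes of unequal length to be compared. Differences are of log2(FPKM + 1) values, so those of weakly expressed genes are understated, and p-values are from limma, adjusted over all genes tested with a threshold of 0.05. The study counts its replicates as animals but gives no number for these libraries, and the sample records do not say whether each came from a separate mouse, so p-values measure the spread between these libraries, which may be technical. In bulk RNA, fewer cells that express a gene and less of its RNA per cell cannot be told apart.

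Cells make cholesterol from acetyl-CoA through the mevalonate pathway, whose early steps also feed isoprenoids used for protein prenylation and ubiquinone. When sterols in the endoplasmic reticulum are low, the SREBP-2 protein encoded by Srebf2 is cleaved and switches on genes of synthesis and uptake, and when oxysterols accumulate, LXR receptors switch on genes of efflux. In hematopoietic stem and progenitor cells, efflux through Abca1 and Apoe is known as a brake on proliferation.

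SREBP proteins act with the factors NF-Y and Sp1, so the 250 bases before the transcription start were searched on both strands for 3 motifs: the sterol element core TCACNCCA, the CCAAT box bound by NF-Y (ATTGG when on the other strand) and the GC box GGGCGG bound by Sp1 (CCGCCC on the other strand). RefSeq promoter entries (build GRCm38.p6) were found for 5 of the 8 members: Srebf2, Hmgcs1, Idi1, Abca1 and Apoe. The windows of the regulator Srebf2 and of both enzymes with an entry are shown, because the sterol element is what links this regulator to its pathway. Capitals mark the motif letters, which do not overlap one another, and the sequences are the plus strand at chr15:82147019-82147268, chr13:119690101-119690350 and chr13:8885356-8885605.
Srebf2: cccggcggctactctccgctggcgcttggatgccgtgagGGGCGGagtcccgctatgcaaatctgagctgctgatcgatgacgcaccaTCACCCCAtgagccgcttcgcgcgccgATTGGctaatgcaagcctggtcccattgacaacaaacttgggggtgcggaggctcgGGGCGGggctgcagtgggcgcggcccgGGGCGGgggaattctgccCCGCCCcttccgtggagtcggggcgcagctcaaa
Hmgcs1: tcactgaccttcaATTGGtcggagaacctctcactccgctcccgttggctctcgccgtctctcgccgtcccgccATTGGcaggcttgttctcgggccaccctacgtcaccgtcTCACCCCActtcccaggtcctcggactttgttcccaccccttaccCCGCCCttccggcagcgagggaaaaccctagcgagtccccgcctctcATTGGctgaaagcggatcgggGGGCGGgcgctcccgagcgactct
Idi1: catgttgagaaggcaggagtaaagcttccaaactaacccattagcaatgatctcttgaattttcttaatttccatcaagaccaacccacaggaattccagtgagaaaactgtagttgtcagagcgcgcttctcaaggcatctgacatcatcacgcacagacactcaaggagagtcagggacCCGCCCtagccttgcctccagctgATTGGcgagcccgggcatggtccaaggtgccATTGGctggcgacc

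Srebf2 and Hmgcs1 each held 1 sterol element core with the letters TCACCCCA, 162 to 155 bases before the start of Srebf2 and 137 to 130 before that of Hmgcs1. Srebf2 also held 1 CCAAT box and 4 GC boxes, and Hmgcs1 held 3 CCAAT boxes and 2 GC boxes. Idi1 held 2 CCAAT boxes and 1 GC box and no sterol element core. The Abca1 window held 2 GC boxes alone, and of the 3 Apoe start sites 1 held a sterol element core. Among all 32851 RefSeq promoter windows of this length, 3.67% held the sterol element core, 33.9% a CCAAT box and 32.7% a GC box. These matches describe letters and not binding.

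Among the 8 members, Apoe, included as a highly expressed gene, was followed in level by Srebf2, and Idi1 and Fdps were close to the limit of detection. In each group the Apoe libraries lay above those of Srebf2, which lay above those of every other member. Hmgcs1, Sqle, Abca1 and Fdft1 formed a middle range of 2.73 to 8.74 FPKM, and within each group neighbours in their order overlapped. In control BM HSC Fdft1 was the lowest of these 4 by its mean, and in PHZ BM HSC it was the highest. Idi1 and Fdps overlapped each other in every group.

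**Figure D1:**
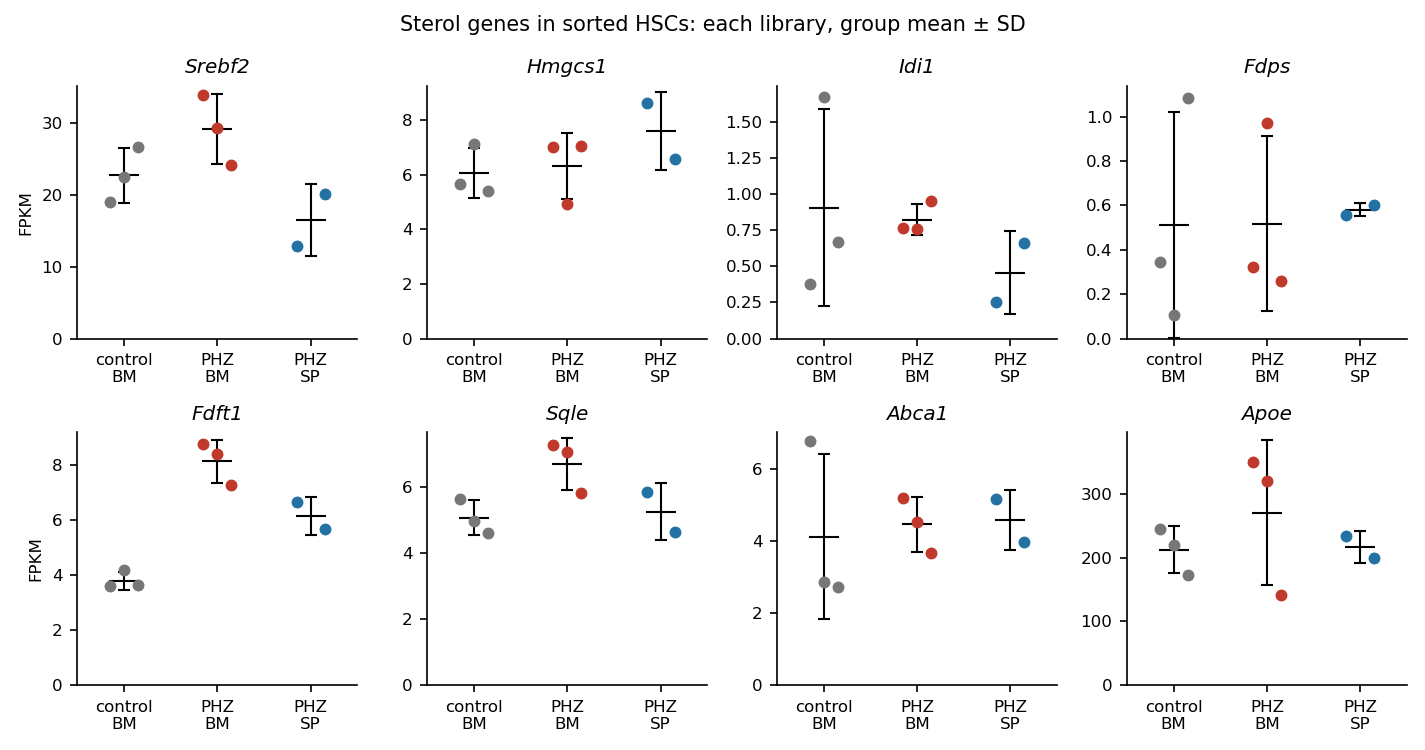
FPKM (vertical axis, from 0) of each of the 8 members in the 3 control BM HSC, 3 PHZ BM HSC and 2 PHZ SP HSC libraries. Points are libraries, horizontal bars are group means and error bars are SD. Fdft1 is the only member whose 3 groups are fully apart, and 1 low PHZ BM HSC library of Apoe and 1 high control library of Abca1 widen their groups.

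Srebf2, the gene for the sterol-sensing transcription factor SREBP-2, was read at 18.9, 22.4 and 26.6 FPKM in control BM HSC. In PHZ BM HSC its levels were 33.8, 29.3 and 24.1 FPKM, and in PHZ SP HSC 12.9 and 20.0. Both spleen libraries lay below every PHZ BM HSC library, whereas the control libraries overlapped each of the other groups. The group means were 22.7 ± 3.84 (SD, n = 3) in control BM HSC, 29.1 ± 4.86 (SD, n = 3) in PHZ BM HSC and 16.5 ± 5.05 (SD, n = 2) in PHZ SP HSC. The difference in PHZ SP HSC relative to PHZ BM HSC was -0.80 ± 0.24 (log2 ± SE), with a 95% interval of -1.33 to -0.28. Its unadjusted p was 0.00612 and its adjusted p 0.161 (limma), so it did not pass. Leaving out spleen replicate 1 brought it to -0.50 and leaving out spleen replicate 2 to -1.10. Against control BM HSC, the differences were 0.35 in PHZ BM HSC (interval -0.12 to 0.82, adjusted p = 0.454, limma) and -0.46 in PHZ SP HSC (interval -0.98 to 0.067, adjusted p = 0.380), the latter at -0.16 and -0.76 without the same 2 libraries in turn. Srebf2 lies at chromosome 15: 82147269 to 82205379 (GRCm38) and holds the microRNA gene Mir33 within its bounds.

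Hmgcs1 (chromosome 13: 119690351 to 119708260) encodes HMG-CoA synthase, which makes the precursor of mevalonate. Its levels were 5.66, 7.13 and 5.40 FPKM in control BM HSC, 7.02, 4.91 and 7.04 in PHZ BM HSC, and 8.62 and 6.59 in PHZ SP HSC. The 3 groups overlapped. The PHZ BM HSC difference from control was 0.046 (log2), with an interval of -0.45 to 0.54 and an adjusted p of 0.947 (limma). In PHZ SP HSC Hmgcs1 differed by 0.28 from control BM HSC (interval -0.27 to 0.84, adjusted p = 0.625) and by 0.24 from PHZ BM HSC (interval -0.32 to 0.79, adjusted p = 0.745).

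Idi1, which interconverts the isoprenoid building blocks, and Fdps, which joins them into farnesyl diphosphate, were scarcely detected. Idi1 lies at chromosome 13: 8885606 to 8892396 and Fdps at chromosome 3: 89093588 to 89101967, with the small nuclear RNA gene Gm22935 inside its bounds. Idi2, a relative of Idi1 on the same chromosome, was not analysed here. Idi1 was read at 0.379, 1.67 and 0.666 FPKM in control BM HSC, 0.762, 0.759 and 0.949 in PHZ BM HSC, and 0.255 and 0.658 in PHZ SP HSC. These values rest on 10 to 53 reads a library. Fdps was read at 0.344, 0.106 and 1.08 FPKM in control BM HSC, 0.321, 0.972 and 0.260 in PHZ BM HSC, and 0.559 and 0.600 in PHZ SP HSC, from 2 to 29 reads. Each reached 1 FPKM in 1 library, so neither was tested. The control values of Idi1 spanned those of all 3 PHZ BM HSC libraries, and those of Fdps spanned both PHZ groups.

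Fdft1 encodes squalene synthase, the first enzyme committed to sterols. It was the 1 member of 6 tested that passed the threshold, and it was higher in PHZ BM HSC than in control BM HSC. Over all genes, 2.74% were called in this comparison, 1.48% as higher and 1.26% as lower. Its levels were 3.58, 4.16 and 3.63 FPKM in control BM HSC, from 144, 155 and 192 reads. In PHZ BM HSC they were 8.74, 8.38 and 7.25 FPKM, from 377, 324 and 386 reads, and in PHZ SP HSC 6.63 and 5.65, from 305 and 242 reads. Every PHZ BM HSC library was above both spleen libraries, which were above every control library. The group means were 3.79 ± 0.325 (SD, n = 3), 8.12 ± 0.773 (SD, n = 3) and 6.14 ± 0.691 (SD, n = 2).

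The rise of Fdft1 in PHZ BM HSC over control BM HSC was 0.93 ± 0.20 (log2 ± SE), with an interval of 0.48 to 1.37 and an adjusted p of 0.0347 (limma). The spleen group differed from control BM HSC by 0.57 ± 0.23, with an interval of 0.077 to 1.07, an unadjusted p of 0.0273 and an adjusted p of 0.248, which did not pass. It differed from PHZ BM HSC by -0.35 (interval -0.85 to 0.14, adjusted p = 0.535, limma). The difference from control BM HSC stayed between 0.87 and 1.09 under 19 other ways of processing the data, and its adjusted p lay on either side of the threshold, from 0.0279 to 0.181. Leaving out any 1 of the 6 marrow libraries ended the call, with adjusted p-values of 0.0547 to 0.181, whereas leaving out either spleen library kept it. The call was also lost with scaling to the summed FPKM, from which Rn45s was left out here and below (0.0521), and with limma's voom on recovered reads (0.0541). It was lost too with the replicate block (0.0608) and with PHZ BM HSC replicates 1 and 2 averaged into 1 (0.176). Those 2 libraries were the most alike of any in the same group (r = 0.976 across genes). Control BM HSC replicate 1 was the least like the others of its group (r = 0.903 and 0.914). Without it 182 genes were called between the marrow groups.

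**Figure D2:**
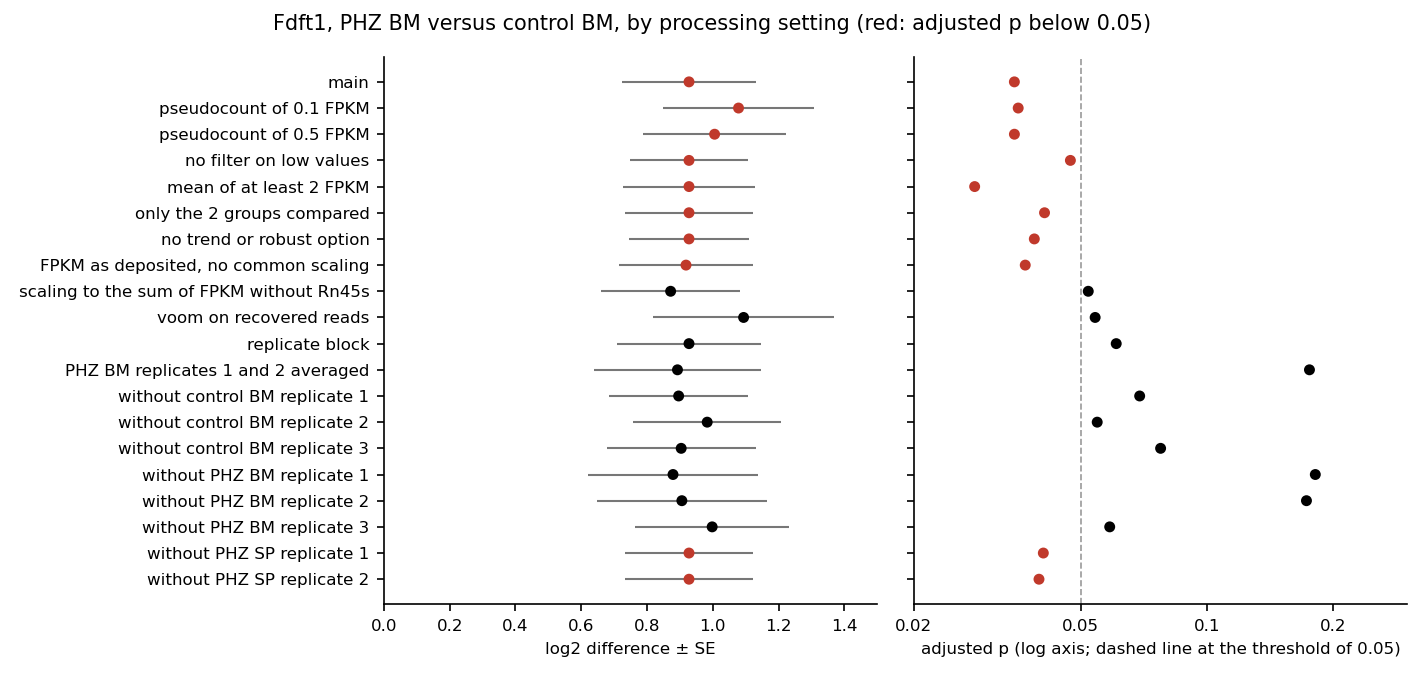
Left, log2 difference of Fdft1 in PHZ BM HSC relative to control BM HSC with its SE under each way of processing. Right, its adjusted p on a log axis with the threshold of 0.05 dashed. Red points pass. The difference stays near 0.93 in every setting while the adjusted p crosses the threshold.

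Fdft1 (chromosome 14: 63145150 to 63181687, GRCm38) overlaps the end of the cathepsin B gene Ctsb over 774 bases, and the strand used in counting is not given in the sources used here, so a part of its reads may be those of Ctsb. Ctsb itself was at 23.7 to 29.2 FPKM in control BM HSC, 24.7 to 28.8 in PHZ BM HSC and 32.7 to 33.3 in PHZ SP HSC. Its difference in PHZ BM HSC relative to control BM HSC was 0.033 (adjusted p = 0.946, limma), and it was 0.36 in PHZ SP HSC relative to control BM HSC (adjusted p = 0.353). Other gene groups moved between the same marrow groups. The summed level of 15 immediate early genes of 16 listed, which rise with stress and cell handling, was 157 to 209 FPKM in control BM HSC, 1060 to 1216 in PHZ BM HSC and 369 to 383 in PHZ SP HSC. That of 22 proliferation genes was 468 to 675, 184 to 312 and 479 to 488 FPKM. The 10 megakaryocyte markers summed to 123 to 152, 94.7 to 119 and 103 to 172 FPKM, and of the 8 tested 2 were called lower in PHZ BM HSC than in control BM HSC (limma). Of the 10 neutrophil markers 1 was called higher there. Their part in the Fdft1 result was not tested.

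Sqle (chromosome 15: 59315092 to 59331193) encodes squalene epoxidase, the enzyme that follows squalene synthase. It was read at 5.64, 4.99 and 4.60 FPKM in control BM HSC, 7.27, 7.06 and 5.82 in PHZ BM HSC, and 5.87 and 4.64 in PHZ SP HSC. All PHZ BM HSC libraries lay above all control libraries. With Fdft1 this made 2 of 6 tested members whose marrow groups did not overlap, against 23.9% of all genes tested. The difference of Sqle was 0.34 (interval -0.12 to 0.80) with an adjusted p of 0.449 (limma), so it did not pass. In PHZ SP HSC Sqle differed by 0.039 from control BM HSC (interval -0.48 to 0.55, adjusted p = 0.958) and by -0.30 from PHZ BM HSC (interval -0.82 to 0.21, adjusted p = 0.622).

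Abca1 (chromosome 4: 53030789 to 53159988) encodes the transporter that passes cholesterol and phospholipids to apolipoproteins. Its levels were 6.77, 2.87 and 2.73 FPKM in control BM HSC, 5.19, 4.52 and 3.68 in PHZ BM HSC, and 5.18 and 3.99 in PHZ SP HSC. The first control library was the highest of all 8, and the other two were the lowest. With this spread the PHZ BM HSC difference from control was 0.17 (interval -0.49 to 0.83, adjusted p = 0.832, limma). Spleen HSCs differed by 0.20 from control BM HSC (interval -0.53 to 0.94, adjusted p = 0.812) and by 0.032 from PHZ BM HSC (interval -0.70 to 0.77, adjusted p = 0.982).

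Apoe (chromosome 7: 19696244 to 19701310) encodes a lipoprotein component that accepts cholesterol and binds lipoprotein receptors. It ranked between 61 and 187 among the genes of a library. Its levels were 245, 221 and 173 FPKM in control BM HSC, 352, 321 and 141 in PHZ BM HSC, and 235 and 199.8 in PHZ SP HSC. PHZ BM HSC held both the highest libraries and the lowest one. The difference from control was 0.26 (interval -0.37 to 0.88, adjusted p = 0.705, limma). Without PHZ BM HSC replicate 3 it was 0.67 with an adjusted p of 0.0449, so 1 library decides this call. The spleen group differed by 0.039 from control BM HSC (interval -0.66 to 0.74, adjusted p = 0.972) and by -0.22 from PHZ BM HSC (interval -0.92 to 0.48, adjusted p = 0.827).

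Macrophages make much Apoe, so their markers were read beside it. The 14 of 16 listed markers found in all tables summed to 257 to 295 FPKM in control BM HSC, 204 to 264 in PHZ BM HSC and 352 to 355 in PHZ SP HSC, most of it from Lyz2, which immature myeloid cells also express. The defining marker Adgre1 was at 0 in 3 libraries and reached 0.287 FPKM at most, while Marco was at 0 in the 6 marrow libraries and above 0 in both spleen libraries, at 0.604 FPKM in the higher. C1qb was at 0.188 to 2.93 FPKM in control BM HSC, 0.614 to 3.52 in PHZ BM HSC and 0 to 0.0822 in PHZ SP HSC. Of the 8 macrophage markers tested, the spleen estimates of 4 were above and of 4 below those of control marrow (median 0.016), and those of 3 above and of 5 below PHZ BM HSC (median -0.022), and 0 were called in either (limma), with 2 and 3 at an unadjusted p under 0.05. Cd68 was at 0 to 8.48 FPKM in control BM HSC, 4.93 to 16.7 in PHZ BM HSC and 34.4 to 57.6 in PHZ SP HSC. The 12 of 15 erythroid markers listed in all tables summed to 131 to 282, 181 to 341 and 947 to 1161 FPKM in the same order of groups, and the 10 neutrophil markers to 429 to 737, 509 to 1057 and 1413 to 1802. The part of these cell types in the values of Apoe and the other members was not tested.

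In the comparisons of PHZ SP HSC, 0 of the 6 tested members passed in either case, by limma on FPKM and by voom alike. Of all genes tested, 0.758% were called in the comparison with control marrow and 0.978% in that with PHZ BM HSC. At an unadjusted p under 0.05 there was 1 of the 6 members against control BM HSC (Fdft1), beside 15.8% of all genes, and 1 against PHZ BM HSC (Srebf2), beside 13.5% of all genes, so these counts were near the background. Fdft1 was the member whose PHZ SP HSC and control BM HSC libraries did not overlap, as was the case for 28.9% of all genes. For Srebf2 and Fdft1 the PHZ SP HSC and PHZ BM HSC libraries did not overlap, as for 34.8% of all genes. The 3 comparisons share libraries with one another, so they are not independent.

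The median difference of the 6 tested members was 0.30 in PHZ BM HSC relative to control BM HSC, beside 0.011 over all genes tested. It was 0.12 in PHZ SP HSC relative to control BM HSC, beside -0.0012, and -0.26 in PHZ SP HSC relative to PHZ BM HSC, beside -0.017. In the first of these, the 6 estimates were above 0. Of those in PHZ SP HSC relative to control BM HSC, 5 were above 0 and 1 below, and with scaling to the summed FPKM 3 were above and 3 below, with a median of 0.061. Between the marrow groups, the estimates of Hmgcs1 and Abca1 changed sign under other settings, Hmgcs1 with scaling to the summed FPKM (-0.013) or when control replicate 3, PHZ marrow replicate 1 or PHZ marrow replicate 3 was left out (-0.021, -0.027 and -0.029), and Abca1 without control BM HSC replicate 3 (-0.015).

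**Figure D3:**
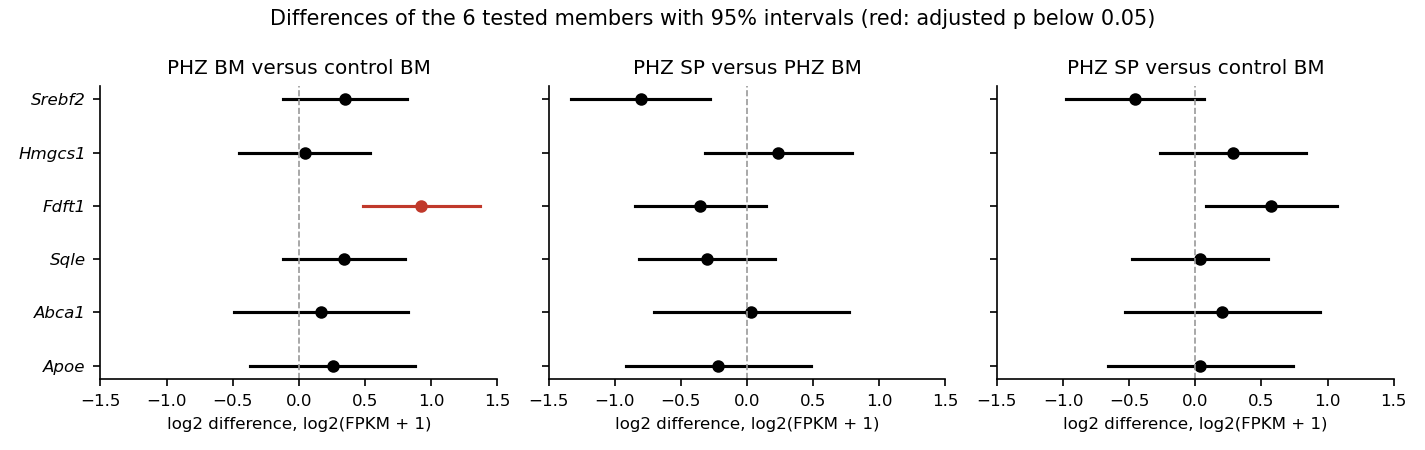
Log2 differences of the 6 tested members in each of the 3 comparisons, with 95% intervals. Dots are estimates and the dashed line is no difference. Fdft1 in PHZ BM HSC against control BM HSC (red, 0.93) is the only adjusted p below 0.05.

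The pathway around the members was described with 4 lists: synthesis, sensing, uptake and transport, and efflux and storage. Together they name 58 genes, of which 56 were listed in all tables and 51 were tested, the members included. In PHZ BM HSC relative to control BM HSC, 3 of the 51 were called higher and 1 lower, beside 1.48% and 1.26% of all genes. Of the 19 synthesis genes tested, Fdft1 alone was called. Of the 11 sensing genes 1 was called, and of the 12 uptake and transport genes 1 rose and 1 fell. Of the 9 efflux and storage genes 0 were called. At an unadjusted p under 0.05 (limma) there were 8 of the 51 genes, near the 16.6% of all genes. By list these were 2 synthesis, 3 sensing, 2 uptake and transport and 1 efflux and storage genes. The median difference over the 51 genes was 0.18, with 34 estimates above 0 and 17 below, beside 5809 above and 5537 below over all genes. With scaling to the summed FPKM, which left 50 of these genes in the test, it was 0.14, with 30 above and 20 below, and the median of all genes was -0.043.

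Mylip, the sensing gene that was called, encodes a ubiquitin ligase that marks lipoprotein receptors for degradation and is itself an LXR target, so it acts on uptake rather than as a sensor. It was read at 1.90, 3.63 and 4.81 FPKM in control BM HSC, 9.26, 11.3 and 9.81 in PHZ BM HSC, and 5.34 and 6.00 in PHZ SP HSC. The spleen libraries lay between the marrow groups, with no overlap. Mylip rose by 1.38 ± 0.27 (log2 ± SE) in PHZ BM HSC over control BM HSC, with an adjusted p of 0.0192 (limma). Mylip in spleen HSCs differed from control BM HSC by 0.64 (adjusted p = 0.324) and from PHZ BM HSC by -0.73 (adjusted p = 0.307).

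Vldlr encodes a receptor that takes up lipoproteins carrying ApoE and that Mylip can target. It was read at 0.732, 1.04 and 1.60 FPKM in control BM HSC, 4.58, 6.62 and 8.90 in PHZ BM HSC, and 2.47 and 0.926 in PHZ SP HSC. Each PHZ BM HSC library was above every library of the other groups. The long noncoding RNA gene Gm35438, not among the genes listed in all 3 tables, spans Vldlr (chromosome 19: 27216480 to 27254231). Some of its reads may therefore be counted for Vldlr. Vldlr rose by 1.84 ± 0.32 (log2 ± SE) in PHZ BM HSC over control BM HSC, with an adjusted p of 0.0104 (limma). Spleen HSCs differed from PHZ BM HSC by -1.54 (adjusted p = 0.0725) and from control BM HSC by 0.30 (adjusted p = 0.722), and neither passed.

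Osbp encodes the oxysterol-binding protein, which moves cholesterol from the endoplasmic reticulum to the Golgi apparatus. It was read at 8.25, 7.96 and 5.88 FPKM in control BM HSC, 3.00, 2.92 and 3.19 in PHZ BM HSC, and 4.58 and 3.36 in PHZ SP HSC. All treated libraries were below all control libraries. Osbp differed by -1.04 ± 0.22 (log2 ± SE) in PHZ BM HSC relative to control BM HSC, with an adjusted p of 0.0320 (limma). The spleen group differed from control BM HSC by -0.75 (adjusted p = 0.177) and from PHZ BM HSC by 0.29 (adjusted p = 0.673).

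These 3 calls were of unequal stability. Vldlr passed 7 times when each of the 8 libraries was dropped in turn and Mylip 5 times, whereas Osbp passed 3 times, with adjusted p-values of up to 0.0576, 0.106 and 0.154. With PHZ BM HSC replicates 1 and 2 averaged, Mylip (adjusted p = 0.0875) and Osbp (0.142) did not pass, and Osbp did not pass with no filter (0.0514) or with the replicate block (0.0560) either. Without PHZ BM HSC replicate 2, 0 of the 51 genes were called. Soat2, which esterifies cholesterol for storage, and Nr1h2, which encodes an LXR receptor, are named here after their values were seen. Soat2 differed by 1.30 (adjusted p = 0.0559, limma) and passed with the replicate block (0.0376) and without control BM HSC replicate 3 (0.0481). Nr1h2 differed by 1.06 (adjusted p = 0.0727, limma) and passed without control BM HSC replicate 3 (0.0407). The immediate early, proliferation and megakaryocyte sums given beside Fdft1 moved between the same groups, and their part in these calls was not tested either.

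In PHZ SP HSC, 0 of the 51 genes passed against control BM HSC, and 0 passed against PHZ BM HSC (limma, and voom likewise). At an unadjusted p under 0.05 there were 6 and 8, near the 15.8% and 13.5% of all genes. The median over the 51 genes was 0.00090 against control BM HSC. With scaling to the summed FPKM it was -0.051 over 50 genes, where the median of all genes was -0.061. Against PHZ BM HSC it was -0.18, with 17 estimates above 0 and 34 below, beside 5473 and 5874 over all genes. With limma's trend and robust options turned off, 1 gene passed in both comparisons. This was Cd36, a scavenger receptor for fatty acids and modified lipoproteins, named here after its values were seen. It was 1.44 (log2) above control BM HSC (adjusted p = 0.0362) and 1.31 above PHZ BM HSC (adjusted p = 0.0466). In the main fit these were 0.0606 and 0.0787 (limma). Its values rest on 8 to 19 reads a library in control BM HSC and 19 to 22 in PHZ BM HSC. The erythroid, neutrophil and macrophage sums given beside Apoe also differed in spleen, and their part in this was not tested.

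**Figure D4:**
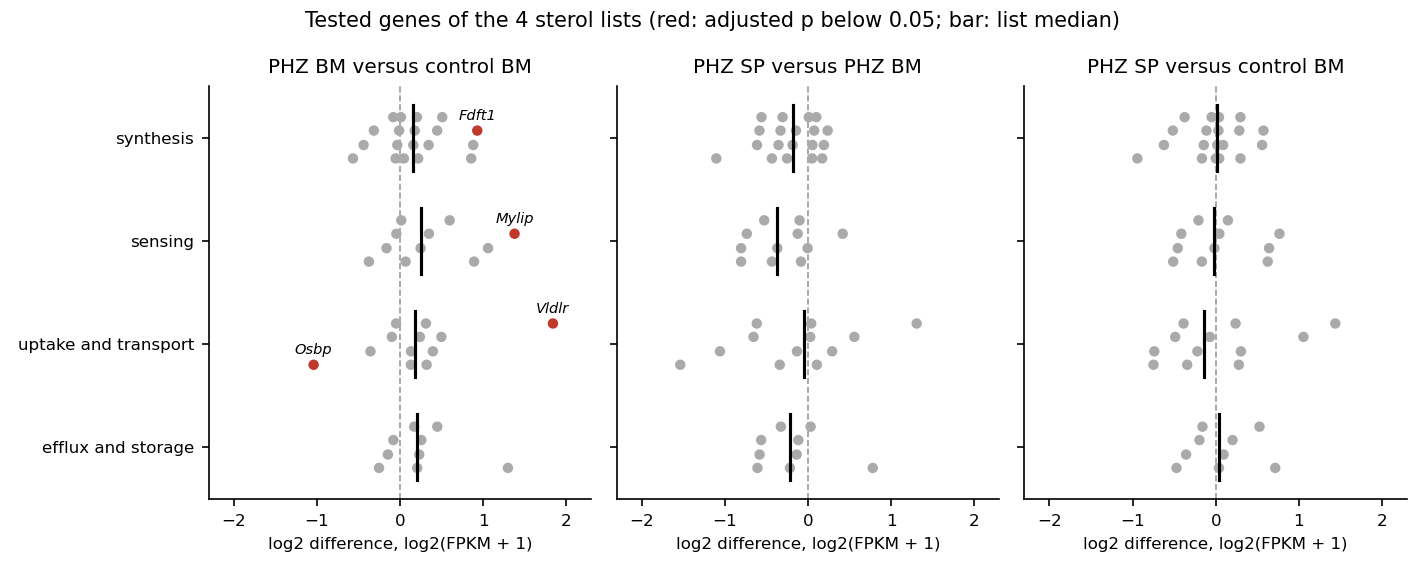
Log2 differences of the 51 tested genes of the 4 sterol lists, 1 dot a gene, in each of the 3 comparisons, with a bar at the median of each list. Red dots have an adjusted p below 0.05, and the vertical spread of dots within a list has no meaning. The 4 called genes are in PHZ BM HSC against control BM HSC, Fdft1, Mylip and Vldlr to the right and Osbp to the left.

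The members did not share a single pattern over the 8 libraries. On the log2 scale, Fdft1 and Sqle, which act in sequence, correlated at r = 0.777, and Sqle and Apoe at r = 0.711. Srebf2 and Hmgcs1, the regulator and an enzyme with the same sterol element letters, were at r = -0.535, and Idi1 and Abca1 at r = -0.677. With 8 libraries that share groups and 28 pairs of members, these values are descriptions.

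The genes outside the members whose pattern was most like the mean of the 5 enzymes (each scaled to the same spread) were Zgpat (r = 0.981), Coro1b (0.978), Nfkbia (0.978), Clk1 (0.975) and Appl2 (0.967), over 8 libraries. Idi1 and Fdps, with 2 to 53 reads a library, make up 2 of the 5 parts of this mean, so counting noise enters it, and the enzymes did not share a pattern (r = -0.571 for Hmgcs1 and Fdps, r = -0.438 for Idi1 and Fdps). Nfkbia, an inhibitor of NF-kB, was at 53.5, 69.1 and 65.7 FPKM in control BM HSC, 93.6, 94.3 and 84.4 in PHZ BM HSC, and 88.6 and 65.5 in PHZ SP HSC. For Apoe they were Pcmtd2 (0.955), Akap8 (0.952), Orai2 (0.929), Slc5a6 (0.915) and Pex26 (0.903). Orai2, a calcium channel subunit, was at 4.63, 5.50 and 2.19 FPKM in PHZ BM HSC, with replicate 3 low as for Apoe. These genes were the closest of 11347 over few libraries.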

How the data were processed

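RNA of sorted HSCs (LSK CD150+ CD48-/low per the study's methods) was amplified with SMART-Seq2 and sequenced from Nextera XT libraries with no molecular identifiers, and PCR copies were therefore counted as reads. Per the labels, the authors mapped reads to mm10 with STAR and used DESeq2. The counter, its annotation and its use of strand are not given in the sources used here. The authors deposited FPKM values in a table per group, and tables of their own fold changes and p-values, which were not used here.

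The tables had been scaled separately. For genes above 0 in all 8 libraries, the values were whole multiples of 1 read's worth (90320 of 90320, tolerance 0.01), so reads were recovered. Genes in fewer libraries fix this worth less firmly, and for 1324 genes above 0 in 1 library it is not fixed. Median-of-ratios factors common to all groups were then applied to the FPKM and changed each library by 1.06% at most. Genes with at least 1 FPKM in at least 2 libraries were fitted with limma 3.58.1 (trend and robust, R 4.3.3) on log2(FPKM + 1), all 8 libraries in 1 fit by group, two-sided, with Benjamini-Hochberg adjustment over 11347 genes. The script was tested on simulated data. Genes called were those with an adjusted p below 0.05, and intervals are at 95%.

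Samples were grouped by title. Replicate numbers are shared between groups, but same-numbered libraries did not deviate together (r = -0.0079 to 0.060), so they were not treated as pairs. With so few libraries a group, this cannot exclude that they share a mouse or a batch. Coordinates, overlaps and promoters came from RefSeq (GRCm38). Named genes were all 8 members, every other gene of the 4 sterol lists that passed, and the 5 genes most like the enzymes and the 5 most like Apoe. The members and lists were chosen with earlier results of these data known. Python 3.11.15 with pandas 2.3.3 and numpy 2.4.6 was used for summaries. The alternatives varied the pseudocount, filter, scaling, samples, test and block, or left out a library.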

Additional observations from a re-analysis of the deposited data

How the results depend on the processing

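The counts of genes called and the differences of the 6 tested members, Mylip, Vldlr and Osbp were recomputed under 19 alternatives, 8 of which left out a library. List medians were recomputed under other scalings only, and the counts of groups that do not overlap, correlations and most similar genes under none. Of 513 values of single genes, 471 kept their direction and side of the threshold, 23 kept their direction but no longer passed, 1 came to pass and 18 changed sign. Genes called in PHZ BM HSC relative to control BM HSC numbered 311, and 205 with no filter, 204 with neither trend nor robust option, 116 with PHZ BM HSC replicates 1 and 2 averaged and 115 to 306 with a library left out. In PHZ SP HSC relative to control BM HSC they numbered 86, and 39 with a pseudocount of 0.1 FPKM, 46 with no filter, 44 with only the 2 groups, 36 with averaging and 14 to 83 with a library left out. In PHZ SP HSC relative to PHZ BM HSC they numbered 111, and 62 with no filter, 63 with neither option, 65 with voom, 25 with averaging and 6 to 146 with a library left out.

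Of the members, 0 were called between the marrow groups with scaling to the sum, voom, the replicate block or averaging, and 0 to 1 with a library left out. Of the pathway genes, 4 were called there, and 1 with averaging and 0 to 5 with a library left out. The other comparisons called 0 members throughout, and 0 pathway genes except 1 in each with neither trend nor robust option. Under the replicate block, 294, 73 and 112 genes were called in the 3 comparisons, beside the 311, 86 and 111 without it. These counts cannot show whether same-numbered libraries share a mouse or a batch. Under this block Fdft1 was not called and Soat2 was, as given above.

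The sign changed for these differences, none of which passed the threshold. Scaling to the sum moved the median of all genes from 0.011 to -0.043 between the marrow groups and from -0.0012 to -0.061 in PHZ SP HSC relative to control BM HSC. With that shift, Hmgcs1 was at -0.013 between the marrow groups, and Sqle and Apoe at -0.023 and -0.034 in PHZ SP HSC relative to control BM HSC. With the replicate block, Sqle and Apoe there were at -0.033 and -0.24, and Abca1 at -0.11 in PHZ SP HSC relative to PHZ BM HSC. With a library left out, the marrow differences spanned -0.029 to 0.19 for Hmgcs1 and -0.015 to 0.51 for Abca1. Those of PHZ SP HSC from control BM HSC spanned -0.10 to 0.18 for Sqle, -0.10 to 0.15 for Apoe and -0.12 to 0.73 for Vldlr, and those from PHZ BM HSC -0.12 to 0.19 for Abca1 and -0.63 to 0.024 for Apoe. Leaving out a library moved 0 of the 4 called differences by over 1.5 times and 17 of the 23 others. Such a move is a ratio to the main estimate or a change of sign, so small differences meet it easily. The called ones are large, so these counts do not compare their stability. Among the moved differences not given above or beside the result, Srebf2 and Apoe spanned 0.23 to 0.47 and 0.015 to 0.67 between the marrow groups. In PHZ SP HSC, Hmgcs1, Abca1 and Mylip spanned 0.11 to 0.45, 0.017 to 0.55 and 0.36 to 0.86 against control BM HSC, and Hmgcs1, Sqle and Osbp 0.066 to 0.41, -0.45 to -0.16 and 0.11 to 0.47 against PHZ BM HSC. The cause of the changes other than that shift was not tested. Idi1 and Fdps, with 2 to 53 reads a library, were not tested.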
